A study of Mus musculus with 2 samples.

Results

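The regions described here are CTCF peaks in the antigen receptor loci of mouse cells that are not lymphocytes. CTCF is a DNA-binding protein found at the anchors of many chromatin loops; it was immunoprecipitated and the bound DNA sequenced in 2 samples. Neural precursor cells (NPC) had been derived in culture from E14 embryonic stem cells and were grown with basic FGF and EGF. They were set against the E14 embryonic stem cells (ESC) themselves, an established mouse line of the IB10 subclone grown with LIF, the cytokine that holds back differentiation, in conditioned medium with fetal calf serum. The same anti-CTCF antibody was used for both, and the labels name no genetic alteration or drug treatment.

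A peak was a member when its centre lay in Igh (chr12:114400000-117350000), Igk (chr6:67400000-70800000), Tcra with the nested Tcrd (chr14:52700000-55000000) or Tcrb (chr6:40750000-41600000), all on mm9. These 4 windows held 176 of the 51421 NPC peaks and 236 of the 54151 ESC peaks. By locus, Igh held 68 NPC and 73 ESC peaks, Igk 42 and 69, Tcra/Tcrd 52 and 75, and Tcrb 14 and 19. The windows were set by position and not by any peak value, though they were chosen with earlier results of these data known.

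Antigen receptor genes are assembled in developing B and T cells by recombination of variable (V), diversity (D) and joining (J) segments, which lie upstream of constant (C) genes. In lymphocyte precursors CTCF sites among the V segments and near the D, J and C segments are known to shape the loops that bring distant V segments to the recombination centre. The recombinase itself is a lymphoid enzyme. Igh encodes the antibody heavy chain, Igk the kappa light chain, and Tcra, Tcrd and Tcrb the alpha, delta and beta chains of the T cell receptor. In the RefSeq gene table for GRCm38, all 183 listed Ighv segments lay at higher coordinates than the heavy chain C genes, so that the C end of Igh is its low-coordinate end. The other loci run the opposite way. All 162 Igkv segments lay below Igkc and all 136 Trav and Trdv segments below Trac, while 34 of 35 Trbv segments lay below the beta chain C genes, the exception being Trbv31. Only this order was used. No peak was assigned to a segment, because no mm9 gene positions or sequence were used here. Below, V end and C end name the sides of a window by this order. How far the windows reach beyond the gene segments was not examined.

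There was 1 library per cell type, so no difference between NPC and ESC has a replicate check and no p-value is given. Intervals are at the 95% level; they take each peak as independent of the next and hold counting error alone. The read depth behind each list is unknown, and how reads that map to several places were handled, which bears on loci made of duplicated segments, is not given in the sources used here. Both track names end in the word CONTROL, which is not explained; the lists are read here as CTCF peaks because the labels and the same track names call them that. A peak's score is the authors' own value, which the files do not define, and it is given here as a percentile within its own list, where 100 is the strongest. Peaks are called shared where at least 1 bp lies inside some peak of the other cell type, as was true of 78.6% of NPC peaks and 74.0% of ESC peaks genome-wide. Peaks had a median width of 433 bp in the NPC list and 573 bp in the ESC list, and a wide peak can overlap several narrow ones.

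CTCF peaks were called in all 4 loci in both cell types, with empty stretches between them, as the map of the peaks along each window shows. Merging peaks that overlapped between the lists gave 243 sites, of which 164 had a peak in both cell types, 7 in NPC only and 72 in ESC only. Igk and Tcrb had no NPC-only site. The ESC-only sites were unevenly divided, with 10 in Igh, 30 in Igk, 27 in Tcra/Tcrd and 5 in Tcrb.

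**Figure D1:**
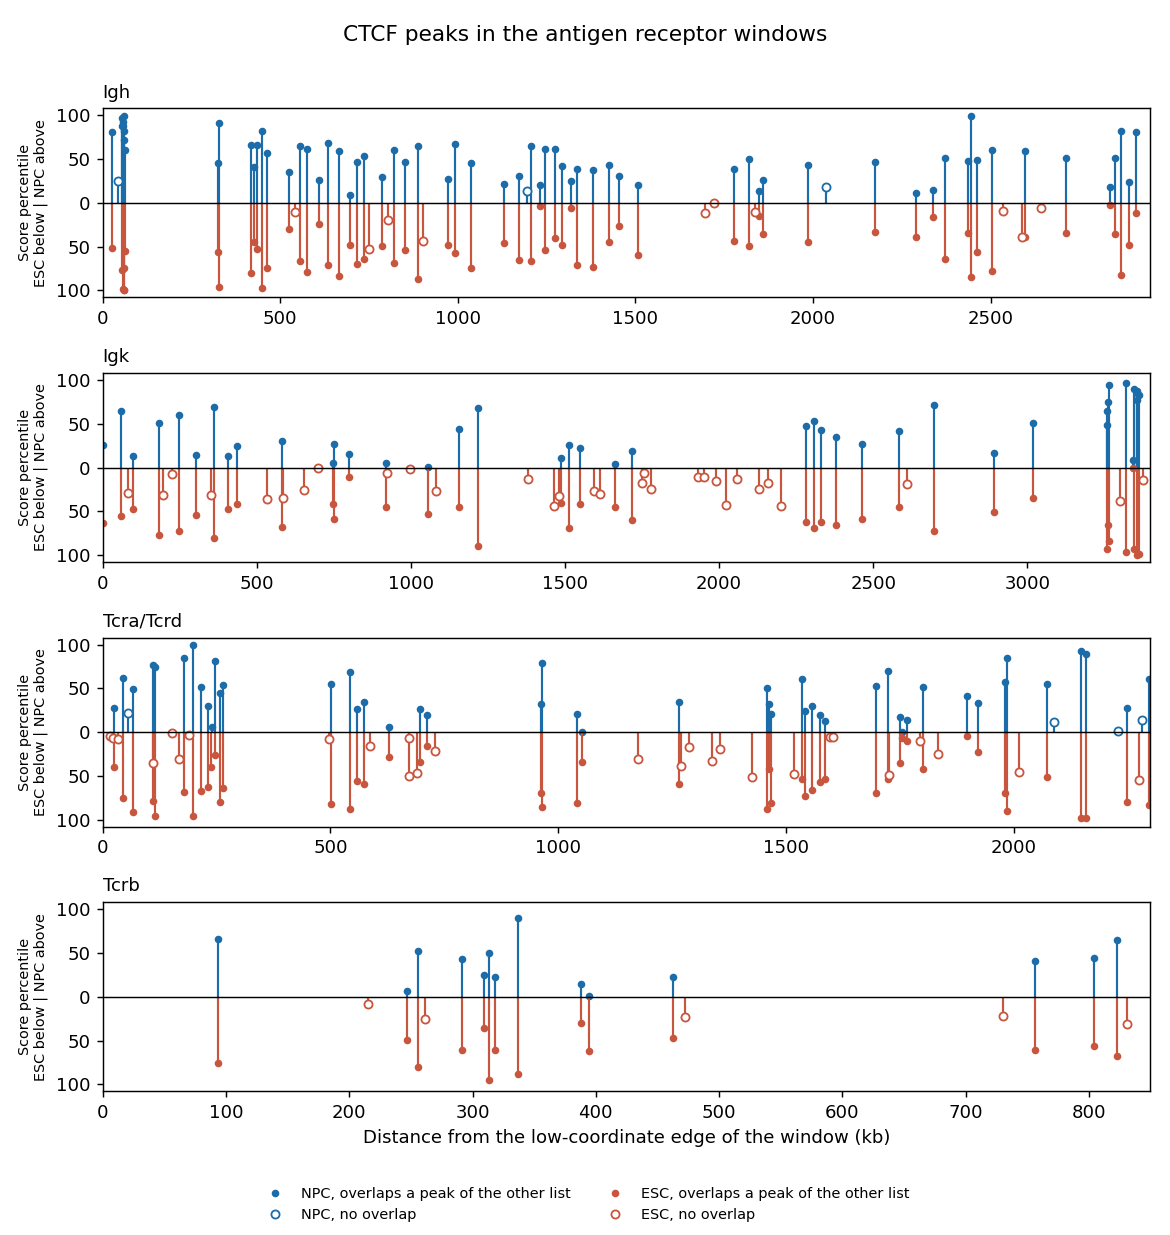
CTCF peaks along the 4 receptor windows. The horizontal axis is the distance from the low-coordinate edge in kb, and each line is a peak whose length gives its score percentile within its own list, NPC upward and ESC downward. Open circles mark peaks with no overlap in the other list: 7 in NPC and 72 in ESC.

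Igh and Tcra/Tcrd were denser in CTCF peaks than the rest of their chromosomes in both cell types, whereas Igk was sparser in NPC. Igh carried 23.1 NPC peaks per Mb (17.9 to 29.2), against 16.6 in the rest of chromosome 12, a ratio of 1.39 (1.08 to 1.77). In ESC it carried 24.7 per Mb (19.4 to 31.1), against 17.9 in the rest, a ratio of 1.38 (1.08 to 1.74). Tcra/Tcrd had 22.6 NPC peaks per Mb (16.9 to 29.6) against 16.4 in the rest of chromosome 14, a ratio of 1.38 (1.03 to 1.82). In ESC it had 32.6 per Mb (25.6 to 40.9) against 16.3, a ratio of 2.00 (1.56 to 2.52). The interval of each of these ratios lay above 1 for the windows as set. The ratios moved with the window edges. With every window narrowed by 100 kb at each end, Igh had 1.201 in NPC and 1.273 in ESC. Tcra/Tcrd then had 1.276 in NPC and 1.92 in ESC. Widening by 100 kb gave 1.559 and 1.491 in Igh, and 1.62 and 2.193 in Tcra/Tcrd. No intervals were computed for the moved edges, so whether the narrowed windows exceed 1 beyond counting error was not tested.

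Igk had fewer peaks in NPC than its chromosome. It carried 12.4 NPC peaks per Mb (8.90 to 16.7), against 20.5 in the rest of chromosome 6, a ratio of 0.603 (0.433 to 0.817). In ESC the density was 20.3 per Mb (15.8 to 25.7) against 21.0, a ratio of 0.967 (0.750 to 1.23). Tcrb, the smallest window, could not be told from its chromosome at these counts, with ratios of 0.803 (0.439 to 1.35) in NPC and 1.07 (0.640 to 1.67) in ESC.

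**Figure D2:**
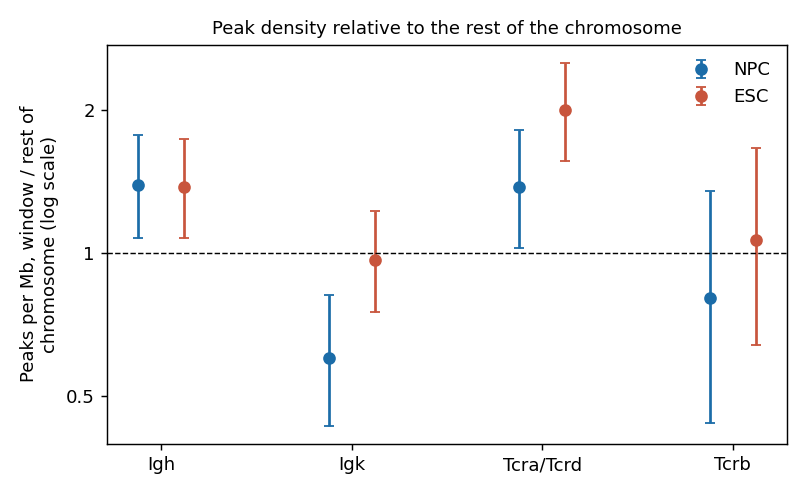
Peaks per Mb in each receptor window divided by peaks per Mb in the rest of the same chromosome, on a log scale, for NPC and ESC. Bars are exact 95% intervals for counting error. Igh and Tcra/Tcrd lie above 1 in both lists, Igk lies below 1 in NPC, and both Tcrb intervals include 1.

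These ratios depend on what the windows are set against. With the 1 Mb on each side pooled, the flanks held 38.5 NPC and 34.0 ESC peaks per Mb beside Igh and 47.5 NPC and 46.5 ESC peaks per Mb beside Tcra/Tcrd. The sides were unequal. The 1 Mb below Igh held 58 NPC and 57 ESC peaks, and the 1 Mb above it 19 NPC and 11 ESC peaks, fewer than the locus per Mb. Below Tcra/Tcrd there were 30 NPC and 31 ESC peaks, and above it 65 NPC and 62 ESC peaks. Against the pooled flanks the ratios were 0.599 in NPC and 0.728 in ESC for Igh, and 0.476 in NPC and 0.701 in ESC for Tcra/Tcrd. Among windows of the same length laid end to end along each chromosome, 8 of 38 others held more NPC peaks than Igh and 11 more ESC peaks. For Tcra/Tcrd 15 of 51 held more NPC peaks and 5 more ESC peaks, and for Igk 27 of 41 held more NPC peaks and 22 more ESC peaks.

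Spacing showed how the peaks were laid out. Neighbouring Igh peaks were a median of 26.9 kb apart in NPC (20.0 to 33.8) and 26.1 kb in ESC (19.2 to 33.8), against 23.6 and 21.1 kb in the rest of chromosome 12. The middle 50% of Igh spacings ran from 14.5 to 46.5 kb in NPC and 15.3 to 45.4 kb in ESC, a narrower range than the 8.11 to 62.3 kb (NPC) and 7.85 to 58.5 kb (ESC) of the rest. Igh was thus denser than its chromosome while its median spacing was no shorter. The widest empty stretch of chromosome 12 outside Igh reached 3029 kb in NPC and 1631 kb in ESC, and the widest within Igh 271 kb in NPC and 261 kb in ESC.

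Igk peaks were the farthest apart. Their median spacing was 54.5 kb in NPC (26.9 to 86.1) against 20.4 kb in the rest of chromosome 6, and 37.2 kb in ESC (25.9 to 48.5) against 19.4 kb. Tcra/Tcrd peaks had medians of 17.2 kb in NPC (14.8 to 32.5) and 16.1 kb in ESC (11.0 to 21.5), against 23.2 and 22.5 kb in the rest of chromosome 14, and the NPC interval included the value of the rest while the ESC interval did not. Tcrb spacings, with medians of 18.8 kb (6.51 to 68.3) and 18.6 kb (8.18 to 47.9), were near the 20.4 and 19.4 kb of chromosome 6.

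**Figure D3:**
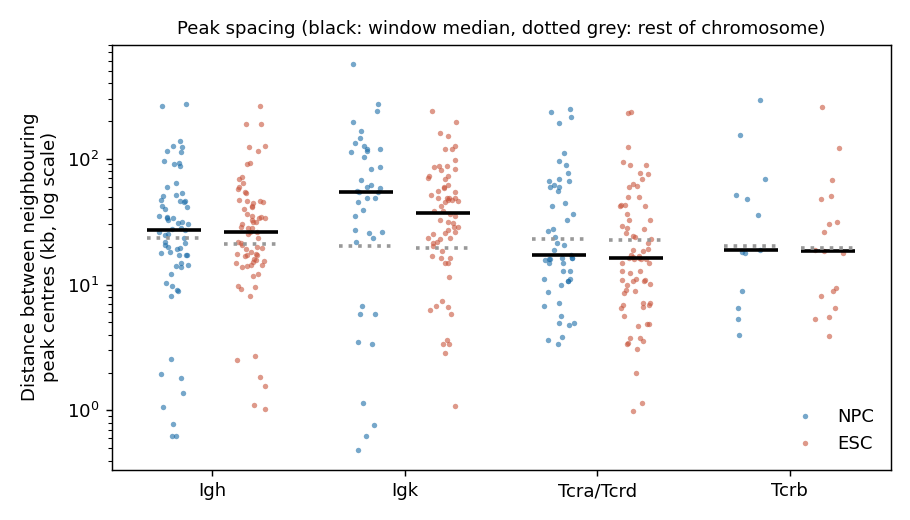
Distances between neighbouring peak centres within each window in kb, on a log scale, for NPC (left) and ESC (right) of each locus. Points are single distances, black lines the window medians and dotted grey lines the medians of the rest of the chromosome. Igk lies above its chromosome in both lists, at 54.5 kb in NPC and 37.2 kb in ESC.

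In Igh the strongest peak of each list lay at the C end. The window was divided into 10 equal parts of 295 kb, numbered from the low coordinate. The strongest 10.0% of all NPC peaks and 10.0% of all ESC peaks included 5 of the 68 NPC and 5 of the 73 ESC peaks of Igh, and part 1 held 3 of them in each list. The strongest peak of the locus in both cell types was chr12:114460124-114461391 in NPC, which was at percentile 99.7 with a score of 3100, and chr12:114459994-114461475 in ESC, also at percentile 99.7 and 3100. Scores piled up at 3100, a value that 208 NPC and 173 ESC peaks share, so that order among those peaks is arbitrary. Just below it lay an ESC peak of 1345 bp (chr12:114457936-114459280, percentile 99.0) that spanned 2 NPC peaks, at percentiles 88.2 and 82.6. A further ESC peak (chr12:114455330-114456483, percentile 98.7) spanned the NPC peaks chr12:114455358-114456035 (percentile 97.2) and chr12:114456071-114456574 (percentile 92.9).

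These neighbouring sites at the C end occupied a few kb and were followed by an empty stretch of 261 kb between ESC peak centres, in which neither list had a peak. A downstream group of CTCF sites beyond the heavy chain C genes is known from B cells; whether these peaks are that group was not examined, for want of mm9 positions. The first peaks on the far side of the empty stretch included chr12:114725735-114726346 in NPC (percentile 91.3) and chr12:114725710-114726417 in ESC (percentile 95.6), a shared site strong in both cell types. The ESC peak chr12:114848932-114849752, at percentile 97.5, had an NPC partner at percentile 82.0.

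Over the remainder of the Igh window, toward its V end, the maximum in parts 3 to 8 was percentile 68.0 in NPC and percentile 86.4 in ESC. In part 9 the NPC peak chr12:116843082-116843616 reached percentile 98.9 and its ESC partner percentile 84.2, and in part 10 the maximum was percentile 81.6 in NPC and percentile 82.9 in ESC. Parts 1 to 5 together held 46 NPC and 46 ESC peaks, and parts 6 to 10 held 22 and 27, so that the side of the window nearer the C genes was denser in both cell types. The widest NPC stretch without a peak, 271 kb, ran between chr12:115906655-115906922 and chr12:116177873-116178088 and contained 2 ESC peaks. At the window edges the first NPC peak was chr12:114425747-114426320 (percentile 80.9, ESC partner at percentile 51.5), and the last was chr12:117309377-117309973 (percentile 80.5), whose ESC partner was only at percentile 11.0.

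In Igh 63 of 76 sites had a peak in both cell types, against 39 of 69 in Igk, 48 of 79 in Tcra/Tcrd and 14 of 19 in Tcrb. Of its NPC peaks, 65 of 68 (95.6%, 87.6 to 99.1) were shared, against 75.3% in the rest of chromosome 12, and of its ESC peaks 63 of 73 (86.3%, 76.2 to 93.2), against 69.1%. At the rates of the rest of the chromosome, the score deciles of the Igh peaks alone would give 79.4% in NPC and 71.5% in ESC, both below the observed intervals. In the pooled 1 Mb flanks the share was 75.3% in NPC and 83.8% in ESC, and the ESC value lay inside the Igh interval. Below Igh 82.8% of NPC and 82.5% of ESC peaks were shared. Above it the shares were 52.6% of 19 NPC peaks and 90.9% of 11 ESC peaks. None of the other windows of the same length with at least 10 peaks, 36 in NPC and 35 in ESC, reached the Igh share. The share was high among weak peaks too: among Igh peaks not above the median score of their list, 32 of 35 were shared in NPC (91.4%, 76.9 to 98.2), against 58.1% in the rest. In ESC it was 28 of 37 (75.7%, 58.8 to 88.2), against 47.2%. When overlap had to cover 50% of both peaks, Igh shares were 80.9% (69.5 to 89.4) in NPC and 75.3% (63.9 to 84.7) in ESC, and those intervals met the ones of the rest of the chromosome (68.4%, 66.3 to 70.5, and 63.2%, 61.1 to 65.3).

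In Igk the NPC peaks were a subset of the ESC peaks. All 42 NPC peaks (100%, 91.6 to 100) overlapped an ESC peak, against 77.6% in the rest of chromosome 6 and 73.5% from their score deciles. In the other direction only 39 of 69 ESC peaks (56.5%, 44.0 to 68.4) had an NPC peak, against 75.4% in the rest and 72.3% from score deciles. In the pooled 1 Mb flanks the share was 79.3% in NPC and 69.7% in ESC, both outside the Igk intervals. By side, 64.0% of 25 ESC peaks below Igk were shared, inside the Igk interval, and 73.2% of 41 above it. The NPC shares were 76.2% of 21 peaks below Igk and 81.1% of 37 above it. Of the 41 other windows of the same length, none reached the NPC share of Igk and 1 had a lower ESC share. The NPC share was less far from the rest under a stricter rule: with 50% reciprocal overlap it was 78.6% (63.2 to 89.7), against 71.1% (69.4 to 72.8) in the rest, and the intervals met. The ESC share remained apart under that rule, at 47.8% (35.6 to 60.2) against 69.5% (67.8 to 71.1).

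The 30 ESC-only peaks of Igk had low scores, as did ESC-only peaks elsewhere on the chromosome. Their percentiles ran from 0.343 to 44.0 with a median of 24.4, against a median of 59.5 for the shared ESC peaks of the locus. In the rest of chromosome 6 these medians were 19.3 and 61.8. None of the 30 scored above the list median, against 63 of 734 in the rest. All 26 Igk peaks of ESC above that median (100%, 86.8 to 100) had an NPC peak, an interval that includes the 95.8% of the rest of chromosome 6. Of those not above it 13 of 43 (30.2%, 17.2 to 46.1) were shared, against 54.9% (52.3 to 57.4) in the rest. The ESC-only peaks lay a median of 46.9 kb from the nearest NPC peak, against 10.4 kb for ESC-only peaks in the rest of chromosome 6. The longest run was 11 consecutive ESC-only peaks. They filled a stretch of 565 kb with no NPC peak, between chr6:69117507-69117817 and chr6:69682937-69683249. In ESC the widest stretch without a peak was 241 kb, between chr6:70418515-70419129 and chr6:70659134-70660129, and NPC had no peak there either.

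The strong Igk peaks were gathered at the C end in both cell types. Part 10, the 340 kb at high coordinates, held 11 of the 42 NPC and 10 of the 69 ESC peaks, and all of the locus's peaks among the strongest 10.0% of each list, 3 in NPC and 5 in ESC. The shared site chr6:70718615-70719313 in NPC and chr6:70718621-70719253 in ESC was at percentiles 96.1 and 96.6. The NPC peak chr6:70664147-70664726 (percentile 94.8) was stronger within its list than its ESC partner (percentile 83.6), and chr6:70747723-70748345 (percentile 90.1) was close to its partner (percentile 92.7). The strongest ESC peak, chr6:70754353-70756606, was 2254 bp wide with a score of 3100 and spanned 3 NPC peaks at percentiles 76.8, 87.2 and 85.3. Next to it chr6:70761604-70762503 was at percentile 98.3 in ESC, with its NPC partner at percentile 82.6. The ESC peak chr6:70659134-70660129 (percentile 93.2) spanned NPC peaks at percentiles 64.3 and 48.6. At the V end the first site, chr6:67401300-67401692 in NPC, was at percentile 25.3, against percentile 63.8 for its ESC partner, and the last ESC peak, chr6:70776601-70776954 (percentile 14.4), had no NPC peak.

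Tcra/Tcrd had the highest peak density of the 4 windows in ESC and was also lopsided in sharing. Of its NPC peaks, 48 of 52 (92.3%, 81.5 to 97.9) were shared, against 76.5% in the rest of chromosome 14 and 72.8% from score deciles. Of its ESC peaks, 48 of 75 (64.0%, 52.1 to 74.8) were shared, against 76.3% (74.4 to 78.2) in the rest and 74.7% from score deciles, and these intervals just met. With 50% reciprocal overlap the NPC share was 73.1% (59.0 to 84.4) against 71.2% in the rest, while the ESC share was 50.7% (38.9 to 62.4) against 71.5%. Of 42 other windows with at least 10 NPC peaks 2 had a higher NPC share, and of 43 with at least 10 ESC peaks 4 had a lower ESC share. In the pooled 1 Mb flanks 84.2% of NPC peaks were shared, inside the Tcra/Tcrd interval, and 84.9% of ESC peaks, above it.

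The 27 ESC-only peaks of Tcra/Tcrd had a median percentile of 21.2, against 65.3 for its shared ESC peaks, close to the 21.1 and 61.3 of the rest of chromosome 14. Among ESC peaks of the locus not above the list median, 14 of 38 (36.8%, 21.8 to 54.0) were shared, against 57.3% (54.1 to 60.4) in the rest of chromosome 14. Part 1, the V end, held 7 of the 27 ESC-only peaks, parts 3 and 6 held 5 each, and the longest run was 5. Of the 27, 3 scored above the ESC median, against 42 of 463 ESC-only peaks in the rest of chromosome 14. They were chr14:53371729-53372189 (percentile 50.5), chr14:54124872-54125265 (percentile 51.4) and chr14:54973979-54974631 (percentile 55.2). As a share of all ESC peaks, such peaks were 3 of 75 in the locus and 2.48% in the whole list. The 4 NPC-only peaks were at or below percentile 21.4 and 3 of them lay in part 10. The receptor windows contained no NPC-only peak above the NPC median, where 2.50% of all NPC peaks fell, and Igh had a single ESC-only one, chr12:115149808-115150466 (percentile 52.5).

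Strong sites stood at both ends of the Tcra/Tcrd window. Whether those at its V end lie inside the array of V segments or outside it was not examined. At that end the NPC peak chr14:52898814-52899417 scored 3170 (rank 17 of the NPC list) and its ESC partner, chr14:52898748-52899461, was at percentile 95.4. The ESC peaks chr14:52815148-52815870 (percentile 95.7) and chr14:52766161-52766868 (percentile 91.5) had NPC partners at percentile 74.6 and 49.7, whereas the NPC peak chr14:52877465-52877979 (percentile 85.1) exceeded its ESC partner (percentile 67.8). At the C end of the window 2 neighbouring sites were strong in both lists: chr14:54847516-54848173 in NPC (percentile 93.1, ESC partner 98.0) and chr14:54858569-54859168 (percentile 89.7, ESC partner 98.0). Trac is followed by the ubiquitously expressed gene Dad1, and where these sites lie relative to either gene was not examined. The NPC peak chr14:54684121-54684728 was at percentile 85.1 and its partner at percentile 89.9. The parts between, 2 to 9, held 35 NPC and 54 ESC peaks and none among the strongest 10.0% of either list. The widest empty stretch in NPC was 250 kb, between chr14:53411593-53411732 and chr14:53661574-53662086, with 1 ESC peak inside, and in ESC 233 kb, between chr14:52963014-52963840 and chr14:53196349-53196667, with no NPC peak inside. The first ESC peak of the window, chr14:52714770-52715104 (percentile 4.87), had no NPC peak. The first NPC peak was chr14:52724600-52724939 (percentile 27.8, ESC partner 40.1) and the last chr14:54995529-54996037 (percentile 60.5, ESC partner 83.0).

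Tcrb was small and had few strong sites. All 14 NPC peaks (100%, 76.8 to 100) were shared, against 77.6% (76.0 to 79.1) in the rest of chromosome 6, and 14 of 19 ESC peaks (73.7%, 48.8 to 90.9), against 75.4%; the intervals included or met the values of the rest. The 5 ESC-only peaks were at or below percentile 30.8. Part 4, 85 kb long, held 6 of the NPC and 7 of the ESC peaks, including the strongest of each list. These were chr6:41086854-41087386 in NPC (percentile 89.7, ESC partner 88.1) and chr6:41062709-41063371 in ESC (percentile 95.6, NPC partner 50.1). The shared site at chr6:41005517-41005918 was at percentile 52.7 in NPC and its partner at percentile 80.3 in ESC. The window's first site, chr6:40843453-40843953 in NPC, was at percentile 66.3 against percentile 76.0 in ESC, and its last NPC peak, chr6:41572562-41573041, at percentile 64.8 against percentile 67.1. The last ESC peak, chr6:41580771-41581259 (percentile 30.8), was ESC-only. Parts 7 and 8 had no peak in either list, within an empty stretch of 294 kb in NPC (chr6:41212801-41213110 to chr6:41506455-41506812) and 258 kb in ESC (chr6:41222115-41222488 to chr6:41480115-41480449). In the RefSeq order a run of trypsinogen genes, which encode pancreatic digestive enzymes, lies between Trbv30 and the C genes; whether it coincides with the empty stretch was not examined.

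**Figure D4:**
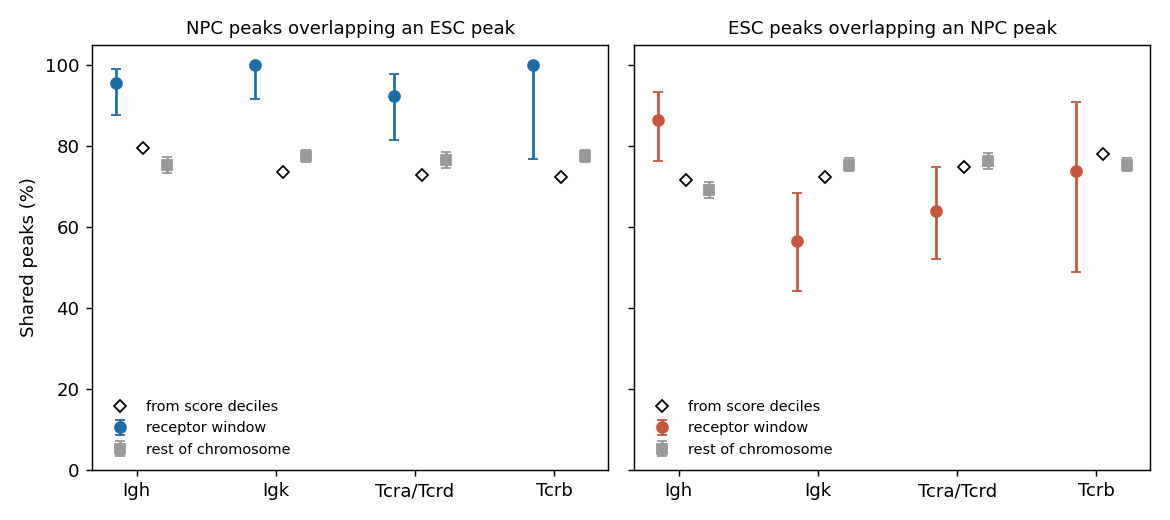
Percent of NPC peaks that overlap an ESC peak (left) and of ESC peaks that overlap an NPC peak (right). Circles are the receptor windows, diamonds the share their score deciles would give at the rates of the rest of the chromosome, and squares the rest of the chromosome, with exact 95% intervals. NPC shares are 92.3% to 100%, and ESC shares run from 56.5% in Igk to 86.3% in Igh.

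At sites matched 1-to-1, Igk, Tcra/Tcrd and Tcrb ranked lower in NPC than in ESC. The 37 pairs of Igk had a median percentile of 30.1 in NPC and 58.7 in ESC, with a median difference of -19.5 (-31.9 to -12.7), and 31 of the 37 were lower in NPC. The 48 pairs of Tcra/Tcrd had medians of 42.8 in NPC and 65.3 in ESC, a median difference of -16.1 (-25.7 to -7.36), with 37 lower in NPC. The 14 pairs of Tcrb had medians of 41.8 and 61.2, a median difference of -19.4 (-42.2 to -9.68), with 13 lower in NPC. Outside the windows the median difference was -1.23 (-2.42 to -0.257) on chromosome 6 and -1.23 (-2.57 to -0.190) on chromosome 14. None of the 40 other windows of the same length with at least 10 pairs had as low a median as Igk on chromosome 6 (lowest -13.2) or as Tcra/Tcrd on chromosome 14 (lowest -13.0), and 2 of 99 were lower than Tcrb.

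By median, Igh pairs differed between NPC and ESC about as much as pairs on the rest of their chromosome. The 61 pairs had medians of 48.9 in NPC and 53.4 in ESC and a median difference of -2.77 (-8.75 to -0.856), close to the -2.76 (-4.36 to -1.62) of the rest of chromosome 12. By count, 40 of 61 Igh pairs were lower in NPC (65.6%), against 56.0% in the rest. The 55 pairs of parts 1 to 9, without the V end, had a median of -4.27 (-10.9 to -1.22). The 6 pairs of part 10, the V end, had a median of 15.6 (-24.0 to 69.6). Without part 1, the C end, the other 56 pairs had -4.51 (-10.9 to -1.31). The division at part 10 is the one used for Igk below, chosen after the values were seen. The interval of all 61 pairs did not meet those of Igk or Tcrb, and met that of Tcra/Tcrd only between -8.75 and -7.36. The interval of the 55 pairs met those of Tcra/Tcrd (-25.7 to -7.36) and Tcrb (-42.2 to -9.68) but not that of Igk. Of the other windows on chromosome 12, 16 of 34 had a lower median than the 61 Igh pairs.

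Within Igk the window was divided into parts 1 to 9 and the C end, a division chosen after the values were seen. The 31 pairs in parts 1 to 9 had a median difference of -30.1 (-34.7 to -15.0), whereas the 6 pairs of part 10 had a median of 4.11 (-15.7 to 11.2), and these intervals met. The 6 pairs leave out 2 part 10 sites where an ESC peak spanned several NPC peaks, all of lower percentile than the ESC peak. With them, 5 of the 8 part 10 sites with a peak in both lists were lower in NPC. A further 2 ESC peaks of part 10, at percentiles 38.0 and 14.4, had no NPC peak. The largest difference of a single Igk pair, also picked after its value was seen, was chr6:68453949-68454278, at percentile 0.524 in NPC against percentile 53.3 in ESC. The flanks of Igk leaned the same way. The 16 pairs in the 1 Mb below Igk had a median of -15.3 (-38.0 to 0.863) and the 30 pairs in the 1 Mb above had -12.6 (-25.4 to 0.917), both with intervals that include 0. Beside Tcrb the flanking medians were 4.89 (-15.5 to 18.8) below and 1.09 (-10.5 to 8.36) above, and beside Tcra/Tcrd 0.307 (-5.37 to 7.93) below and -6.19 (-9.68 to -0.493) above.

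**Figure D5:**
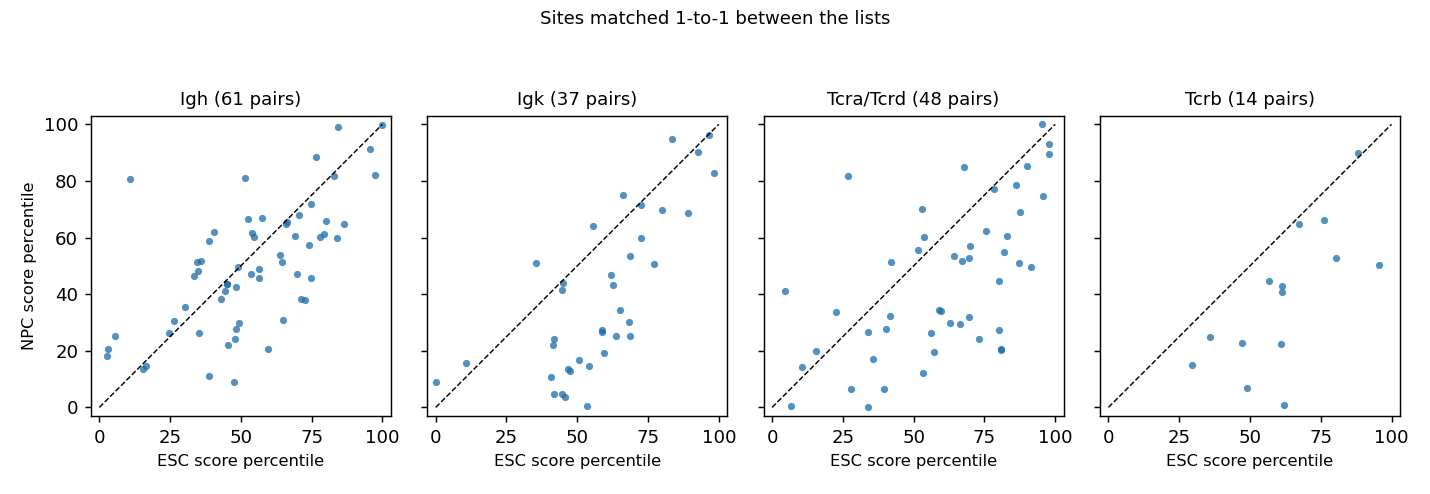
Score percentile in NPC (vertical) against ESC (horizontal) at sites matched 1-to-1, with the dashed line marking equal percentiles. Most points of Igk (31 of 37), Tcra/Tcrd (37 of 48) and Tcrb (13 of 14) lie below the line, and Igh has 40 of 61 (65.6%) below it. In the rest of the chromosomes 52.8% to 56.0% of pairs are lower in NPC.

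The order of sites was partly kept between the cell types. Across pairs, which share their libraries and are not replicates, Spearman's rho and Pearson's r of the percentiles were 0.64 and 0.65 in Igh, 0.75 and 0.74 in Igk, 0.59 and 0.60 in Tcra/Tcrd and 0.70 and 0.70 in Tcrb, against 0.57 to 0.64 and 0.55 to 0.62 in the rest of the 3 chromosomes.

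By score over all their peaks the loci could not be told from the rest of their chromosomes. The median percentile of Igh was 49.3 in NPC (43.5 to 60.1) and 49.5 in ESC (44.4 to 57.3), against 47.1 and 48.6 in the rest of chromosome 12. Igk was at 42.3 (25.3 to 53.6) in NPC and 43.0 (32.8 to 50.6) in ESC, against 49.6 and 50.1. Tcra/Tcrd was at 34.1 (27.2 to 52.8) in NPC and 48.6 (35.7 to 57.2) in ESC, against 48.2 and 49.6, and Tcrb at 41.8 (15.0 to 64.8) and 56.8 (29.7 to 67.1), against 49.6 and 50.1. Each of these 8 intervals included the value of the rest. Peaks were narrower than on the rest of the chromosome in the NPC list, with medians from 359 bp (301 to 490) in Tcrb to 380 bp (320 to 425) in Tcra/Tcrd, against 422 to 428 bp. For Igh, at 364 bp (335 to 405), the interval lay below that of the rest (416 to 430). The Tcra/Tcrd interval lay below the 427 bp of the rest but met its interval (420 to 435). For Igk (372 bp, 339 to 441) and Tcrb the interval included the value of the rest. In ESC the medians ran from 525 bp in Igk to 548 bp in Tcra/Tcrd, against 565 to 573 bp, with every interval including the rest.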

How the data were processed

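CTCF was immunoprecipitated and sequenced on the SOLiD platform in 1 NPC and 1 ESC library, per the labels' protocols. Per the file headers the peaks come from MACS (the track names end in CONTROL, unexplained); per the submitters' processing notes the build is mm9. The sources used here give neither aligner, MACS version, threshold nor control. The authors deposited 1 peak list per library, giving the position of each peak and a score of undefined scale. No depth is given.

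Peaks were assigned to windows by centre. The rest of a chromosome ran from its first to its last peak in either list, without the receptor windows. Overlap needed 1 bp and was checked against bedtools 2.31.1. Shares carry exact Clopper-Pearson intervals, densities exact Poisson intervals, density ratios exact conditional binomial intervals and medians order-statistic intervals. Expected shares used 10 score bins. Windows of equal length, laid end to end from each receptor window, were not cleared of the other locus on chromosome 6. Named peaks were the 5 strongest per list and window, cell-type-only peaks above the list median, the edges of the widest gap, the first and last peaks, and partners of these. Members, lists and tests were chosen with earlier results of these data known. The overlap and density steps were tested on simulated data. Python 3.11.15, numpy 2.4.6, pandas 2.3.3, scipy 1.17.1 and matplotlib 3.10.9 were used.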

Additional observations from a re-analysis of the deposited data

How the results depend on the processing

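Across 40 values (density ratio, median spacing, median percentile, shared percent and median width of 4 loci in 2 lists), 138 of 160 alternative values stayed inside the interval of the value given above, including all those for spacing and width. Spacing and width were varied only by moving the window edges by 100 kb, which keeps most of the same peaks, so their staying inside says little. The tally also does not ask whether a locus would still differ from the rest of its chromosome. Set against 1 Mb on each side in place of the rest of the chromosome, the density ratio turned below 1 for Igh (0.599 in NPC, 0.728 in ESC) and Tcra/Tcrd (0.476 in NPC, 0.701 in ESC) and dropped for Igk (0.426 in NPC, 0.615 in ESC); both sides were pooled, and they differ in density. When only peaks above their list's median score were counted (upper 50%), the Igk ratio in ESC was 0.727. With 50% reciprocal overlap the shared percent was 80.9% (NPC) and 75.3% (ESC) in Igh, 78.6% (NPC) in Igk, and 73.1% (NPC) and 50.7% (ESC) in Tcra/Tcrd. With centres within 100 bp it was 86.8% in Igh and 88.1% in Igk, both NPC. Under that rule the NPC interval of Igk (74.4 to 96.0) met that of the rest (73.0%, 71.3 to 74.6). The NPC interval of Tcra/Tcrd (84.6%, 71.9 to 93.1) also met that of the rest (72.0%, 69.9 to 74.0). Those of Igh and Tcrb stayed apart from the rest. In the upper 50% by score, against the whole other list, the shared percent was 100% (NPC) and 97.2% (ESC) in Igh, 100% in Igk (ESC), 100% (NPC) and 91.9% (ESC) in Tcra/Tcrd, and 100% in Tcrb (ESC). The cause of these moves was not tested, and read depth is unknown. Counting shared peaks only, the median ESC percentile was 59.5 in Igk and 65.3 in Tcra/Tcrd. No paired analysis was possible because each cell type has 1 library, and none could be left out.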
